A study of Mus musculus with 9 samples.

Results

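The genes described here encode the extracellular and secretory-pathway enzymes that hydroxylate, trim and cross-link collagen: the lysyl oxidases Lox, Loxl1, Loxl2, Loxl3 and Loxl4, the lysyl hydroxylases Plod1, Plod2 and Plod3, and Pcolce, the enhancer of procollagen C-proteinase. They are 9 genes, each measured by 1 probe set out of 28853 on the array, and were taken by their symbol in the deposited expression table. They were chosen by function with the log2 changes of these same arrays already known, so their changes are described as those of picked genes. Where a gene had several probe sets, the one with the highest mean over the 9 arrays was used. That choice arose for Loxl4 alone, whose probe sets averaged 4.37 and 2.59 on the log2 scale, and for the 9 genes these means, which served to choose and are not results, ran from 4.37 (Loxl4) to 7.49 (Pcolce).

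Expression was measured on 9 arrays in 3 groups of 3. The D10 and D5 lines were re-derived from bone marrow taken on days 10 and 5 after transplantation of oGFP+ ESCs, by sorting green cells and passaging their colonies on feeder cells, and the reference is the transplanted embryonic stem cell line (ESC) itself, made from blastocysts of 3.5 days. All groups carry the Oct4/EGFP transgene of OG2 mice on a C57BL/6 cross, which marks cells that express Oct4, and all were grown on feeder cells in ESC medium. The label of the strain differs by a running number from sample to sample, the age of the host mice is not given in the labels, and each re-derived group is described as the product of 1 line, so that the p-values reflect how samples within a line vary and not how independent derivations would.

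Fibrillar collagen is made as a precursor in the endoplasmic reticulum, where prolyl and lysyl residues are hydroxylated and some hydroxylysines carry sugars. After secretion the propeptides are cut off, the C-propeptides by the tolloid proteases, and the trimmed molecules assemble into fibrils. Lysyl oxidases, which need copper, then turn lysine and hydroxylysine side chains into aldehydes that react to covalent cross-links, and which cross-link forms depends on the earlier hydroxylation. These enzymes are best known from connective tissue cells such as fibroblasts.

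D10 replicates 1 and 3 lay closer together (standard deviation, SD, of their difference 0.0686 over bright probe sets) than the remaining 8 replicate pairs (0.154 to 0.201). Their mean was counted as 1 sample, which gives n = 2 for D10 and n = 3 each for D5 and ESC. Pou5f1, Nanog and Sox2, the core pluripotency factors, were bright in all groups: their mean log2 values lay at 10.44, 9.63 and 9.27 in D10, 10.56, 9.38 and 9.34 in D5, and 10.75, 9.81 and 9.70 in ESC. Against ESC, Sox2 was called lower in D10 (log2 change -0.43, limma, adjusted p = 0.0185) and in D5 (-0.35, adjusted p = 0.0439). Nanog was called lower in D5 alone (-0.43, limma, adjusted p = 0.0156), and Pou5f1 did not pass in either line. Of 10 blood cell markers, 3 averaged above the background level of 3.68, the log2 value that 95% of olfactory and vomeronasal receptor probe sets stayed under. In these bulk samples fewer cells of a type and less RNA per cell cannot be told apart.

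All 5 lysyl oxidases were higher in D10 than in ESC, Loxl1, Loxl2 and Loxl3 were also higher in D5, and Lox alone passed the test between D10 and D5. Of the hydroxylases, Plod3 was 1.36-fold higher in D10, while Plod1 and Plod2 did not pass in any comparison. Pcolce was 1.43-fold higher in D10. Counted over the 9 genes, 7 were higher in D10 than in ESC in limma at an adjusted p of 0.05, with folds from 1.36 to 2.64. Over all probe sets the share called higher was 5.32% and the share called lower 3.33%, and over those above the background level 7.65% were higher. In D5 against ESC 3 of 9 were higher, where 2.36% of all probe sets were higher, 1.5% lower, and 3.56% of those above the background level higher. In D10 against D5 the count was 1 of 9, against 0.194% of all probe sets higher, 0.0208% lower, and 0.265% higher above the background level. Arrays did not overlap, with the first group higher, for 7 of 9 genes in D10 against ESC (14.9% of all probe sets), 6 in D5 against ESC (10.7%) and 8 in D10 against D5 (9.87%). In these counts, other comparisons of single arrays and the correlations over 9 arrays, D10 replicates 1 and 3 were taken separately. The count in D10 against ESC was 4 when the fit left out the D5 arrays, and that in D10 against D5 ranged from 0 to 4 over the alternatives. None of the 9 was called lower in these comparisons, and none was lower at an unadjusted p under 0.05 in limma either. At that unadjusted p, 7 of the 9 were higher in D10 against ESC (10.4% of all probe sets higher and 10.7% lower), 6 in D5 against ESC (8.31% higher and 8.25% lower) and 8 in D10 against D5 (5.58% higher and 4.17% lower). All p-values given were adjusted over the 28853 probe sets, for genes that were picked with earlier results of the same arrays known.

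**Figure D1:**
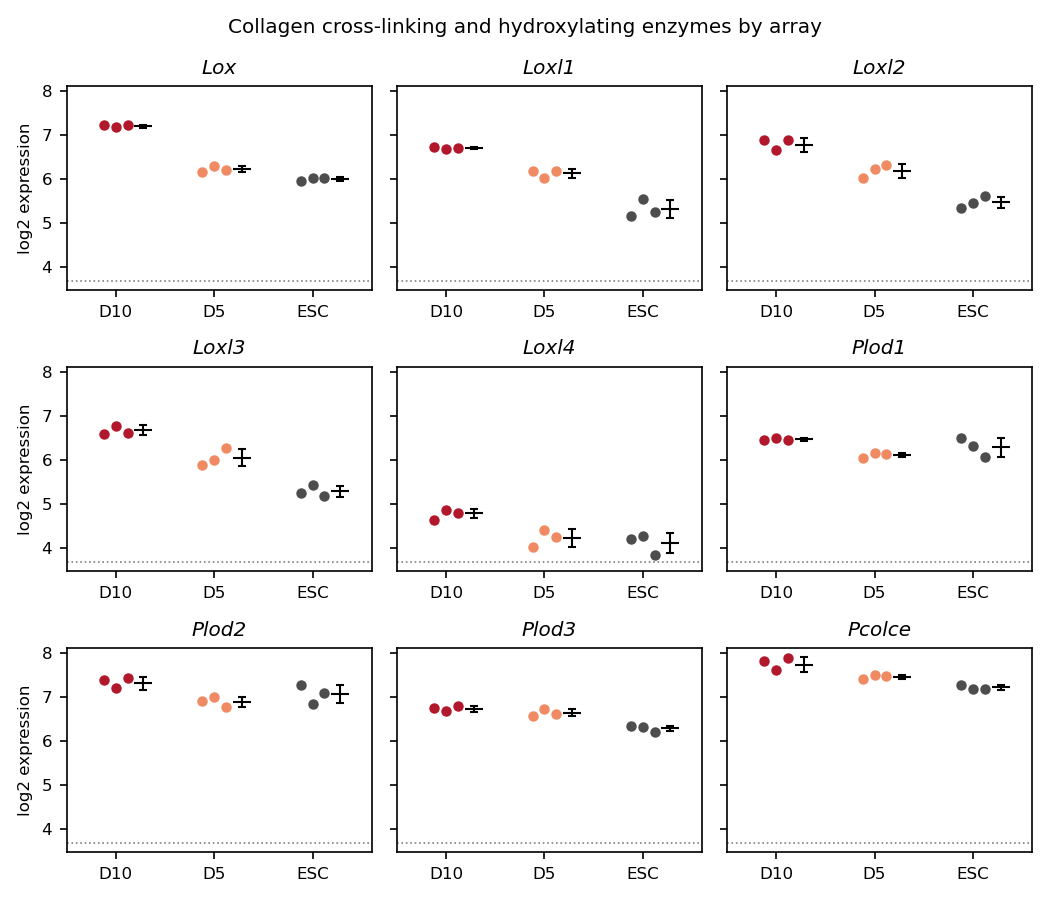
Log2 expression (vertical axis) of the 9 genes on each array of D10, D5 and ESC (points), with the group mean and SD beside them (D10: replicates 1 and 3 averaged, n = 2; D5 and ESC: n = 3); the dotted line is the background level of 3.68. Loxl1, Loxl2 and Loxl3 step down from D10 over D5 to ESC, Lox is highest in D10 with D5 just above ESC, and the points of Plod1 and Plod2 in D10 and ESC overlap.

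Lox is the founding lysyl oxidase and acts on fibrillar collagens and elastin. Its log2 values were 7.23, 7.18 and 7.22 in the D10 replicates, 6.17, 6.30 and 6.21 in the D5 replicates and 5.96, 6.03 and 6.03 in the ESC replicates. The D10 arrays stood about a full log2 unit above all others, and the D5 arrays lay just above the ESC arrays without overlap. The D10 mean of 7.20 ± 0.03 (SD, n = 2) was 2.29-fold that of ESC at 6.00 ± 0.04 (SD, n = 3; limma, adjusted p = 0.000145) and 1.97-fold that of D5 at 6.23 ± 0.07 (SD, n = 3; limma, adjusted p = 0.0110). For D5 against ESC the log2 change was 0.22 with a 95% interval of 0.05 to 0.40, which did not pass (limma, adjusted p = 0.180). Without D10 replicate 2, D10 is the 1 averaged sample of replicates 1 and 3, assumed to vary like the other groups, so a call lost there also reflects n = 1. The call between D10 and D5 was lost in that case (adjusted p = 0.135), without D5 replicate 1 (0.0778) or D5 replicate 3 (0.0622), and when the fit left out the ESC arrays (0.117), while the log2 change stayed between 0.95 and 1.01.

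Loxl1 serves mainly the upkeep of elastic fibres. It read 6.72, 6.70 and 6.71 on the D10 arrays, 6.18, 6.02 and 6.19 on the D5 arrays, and 5.16, 5.56 and 5.24 on the ESC arrays. The groups did not overlap, and ESC varied most. Loxl1 was 2.62-fold higher in D10 than in ESC (6.71 ± 0.02 against 5.32 ± 0.21; limma, adjusted p = 0.000428) and 1.75-fold higher in D5 than in ESC (6.13 ± 0.09 in D5; limma, adjusted p = 0.00723). Between D10 and D5 its log2 change of 0.58 (95% interval 0.29 to 0.87) did not pass (limma, adjusted p = 0.130).

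Loxl2, which cross-links collagen IV of basement membranes besides fibrillar collagen, had 6.88, 6.66 and 6.89 in D10, 6.02, 6.22 and 6.32 in D5, and 5.35, 5.45 and 5.60 in ESC, again without overlap between the groups. It was 2.47-fold higher in D10 than in ESC (6.77 ± 0.16 against 5.47 ± 0.13; limma, adjusted p = 0.000577) and 1.65-fold higher in D5 (6.19 ± 0.15; limma, adjusted p = 0.0120). Loxl3, whose loss in mice disturbs the palate and the spine, had 6.59, 6.77 and 6.62 in D10, 5.89, 5.99 and 6.27 in D5, and 5.26, 5.43 and 5.18 in ESC. Here too every D10 array stood above every D5 array and every D5 array above every ESC array. The folds of Loxl3 were 2.64 for D10 against ESC (6.69 ± 0.12 against 5.29 ± 0.13; limma, adjusted p = 0.000517) and 1.69 for D5 against ESC (6.05 ± 0.19 in D5; limma, adjusted p = 0.0117). Without ESC replicate 1 both D5 calls were lost (adjusted p = 0.0531 for Loxl2 and 0.0520 for Loxl3), which leaves 1 of the 9 genes called, and without ESC replicate 3 that of Loxl3 was lost (0.0576). Between D10 and D5 the log2 changes were 0.58 (95% interval 0.29 to 0.87) for Loxl2 and 0.64 (0.34 to 0.94) for Loxl3, and neither passed (limma, adjusted p = 0.125 and 0.114). Both passed, as did Loxl1, when the 9 arrays were counted separately (adjusted p from 0.0253 to 0.0315).

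Loxl4, an oxidase of the same catalytic family, was measured near the background level. Its values were 4.64, 4.86 and 4.80 in D10, 4.02, 4.42 and 4.24 in D5, and 4.21, 4.26 and 3.85 in ESC. The D10 arrays stood above all others, and D5 and ESC overlapped. It was 1.61-fold higher in D10 than in ESC (4.79 ± 0.10 against 4.11 ± 0.23; limma, adjusted p = 0.0308), a call that was lost in 5 of 18 alternatives (adjusted p from 0.0517 to 0.0762 in 4 of them, and 0.172 without D10 replicate 2, where D10 has n = 1). The second probe set of the gene, below background in all groups, had log2 changes of 0.47 for D10 against ESC (limma, adjusted p = 0.0248) and 0.01 for D5 against ESC, and the first had 0.12 in D5 against ESC (95% interval -0.20 to 0.44).

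The 5 oxidases had a median log2 change of 1.30 in D10 against ESC and 0.72 in D5 against ESC, against -0.02 and -0.01 over all probe sets, and both comparisons share the ESC arrays. The change of Loxl3 in D10 was larger than that of 99.4% of the probe sets above the background level, and that of Loxl4 was larger than 95.5% of them. In D5 the corresponding shares were 98.9% for Loxl3, 86.2% for Lox and 74.5% for Loxl4. Of the 9 genes, 5 (Lox, Loxl1, Loxl2, Loxl3 and Pcolce) had every D10 array above every D5 array and every D5 array above every ESC array, an order that 3.32% of all probe sets showed. The D5 mean of Loxl1, Loxl2 and Loxl3 stood at 58.3%, 55.2% and 54.3% of the distance between the ESC and the D10 mean, and that of Lox at 18.5%. Among the 461 probe sets of the authors' shorter list are Lox, Loxl1, Loxl2 and Loxl3, and none of the other 5 genes.

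**Figure D2:**
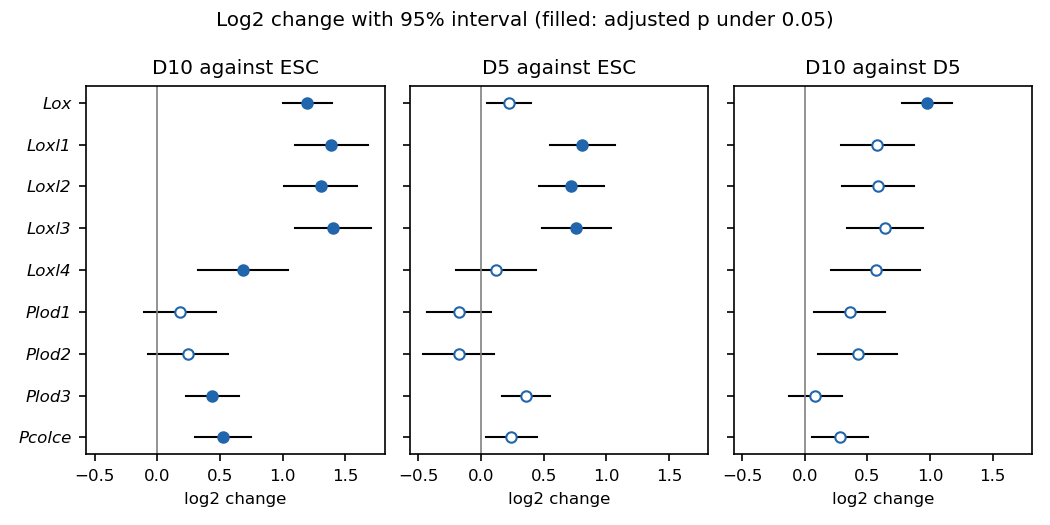
Log2 change (horizontal axis) of each of the 9 genes in D10 against ESC, D5 against ESC and D10 against D5, with 95% intervals from limma; filled points have an adjusted p under 0.05. The D10 panel has 7 filled points, the D5 panel 3 (Loxl1, Loxl2 and Loxl3), and the panel of D10 against D5 has Lox alone.

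The lysyl hydroxylases act before the oxidases, inside the cell. Plod1 hydroxylates lysines of the collagen triple helix, Plod2 those of the telopeptides that set the type of cross-link, and Plod3 also carries glycosyltransferase activity toward hydroxylysine. RefSeq promoter windows (GRCm38.p6, 250 bases before to 50 after a start site) were at hand for Plod1, Plod3, Loxl4 and Pcolce, that is for 4 of the 9 genes. The Pcolce window (chr5:137611355-137611654, minus strand) is placed on a start inside the gene, whose first base lies at 137611522. Those of Plod3, which was called in D10, and of Plod1, which was not, are shown in the direction of the gene. They are shown as the pair of paralogues that differ in their call. Capitals mark the core of the hypoxia response element (ACGTG or GCGTG, on either strand), since collagen hydroxylases are known hypoxia-responsive genes. Of 14 hypoxia genes, however, 7 fell and 1 rose in D10, where Plod3 was higher, and 6 fell and 1 rose in D5. A part of hypoxia in the change of Plod3 was not tested.
Plod3, chr5:136986769-136987068, plus strand: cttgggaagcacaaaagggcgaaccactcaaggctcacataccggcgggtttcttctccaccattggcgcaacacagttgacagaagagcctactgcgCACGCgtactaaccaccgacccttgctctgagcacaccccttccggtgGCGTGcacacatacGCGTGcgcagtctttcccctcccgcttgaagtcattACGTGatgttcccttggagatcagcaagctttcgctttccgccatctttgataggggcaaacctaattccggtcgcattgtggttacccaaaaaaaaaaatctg
Plod1, chr4:147936727-147937026, minus strand: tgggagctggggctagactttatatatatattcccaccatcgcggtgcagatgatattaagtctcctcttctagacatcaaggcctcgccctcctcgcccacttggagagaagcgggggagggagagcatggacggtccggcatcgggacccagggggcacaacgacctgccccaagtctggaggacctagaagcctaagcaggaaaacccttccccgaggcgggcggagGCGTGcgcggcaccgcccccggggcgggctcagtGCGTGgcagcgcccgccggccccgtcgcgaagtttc
The Plod3 window holds 4 matches, the nearest beginning 54 bases before the start. The Plod1 window holds 2, both nearer, beginning 20 bases before the start and at base 15 after it. The windows of Loxl4 and Pcolce hold 1 each. Of 32851 promoter windows of this length 43.8% hold at least 1 match. Both forms of this core contain a CpG dinucleotide, and the share among windows of like CpG count was not computed. The SMAD binding core (CAGAC, either strand) was found once each in Plod1 and Loxl4 and in 49.6% of all windows, and matches of different motifs were counted separately. The GC content was 53.3% for Plod3, 64.3% for Plod1, 75.0% for Loxl4 and 59.3% for Pcolce, with 19, 25, 32 and 5 CpG dinucleotides in the same order, against medians of 52.7% and 7 over all windows.

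Plod3 read 6.76, 6.68 and 6.80 in D10, 6.58, 6.73 and 6.62 in D5, and 6.34, 6.31 and 6.21 in ESC. Arrays of both re-derived lines stood above all ESC arrays and overlapped with each other. In D10 it was 1.36-fold higher than in ESC (6.73 ± 0.07 against 6.29 ± 0.07; limma, adjusted p = 0.0226). In D5 the log2 change of 0.36 (95% interval 0.17 to 0.55) just missed the threshold (limma, adjusted p = 0.0545), and between D10 and D5 it was 0.08 (-0.13 to 0.29). The call in D10 was lost without D10 replicate 2 (adjusted p = 0.0657, with D10 at n = 1), ESC replicate 2 (0.0532) or ESC replicate 3 (0.0746) and when the fit left out the D5 arrays (0.0527). D5 against ESC passed in 5 of 17 alternatives (lowest adjusted p = 0.0297).

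Plod2 gave 7.40, 7.20 and 7.45 in D10, 6.91, 6.995 and 6.77 in D5, and 7.27, 6.85 and 7.08 in ESC. The D10 arrays lay above the D5 arrays, and ESC overlapped with both. Its log2 changes were 0.24 for D10 against ESC (95% interval -0.07 to 0.56; limma, adjusted p = 0.375), -0.18 for D5 against ESC (-0.46 to 0.11; adjusted p = 0.555) and 0.42 for D10 against D5 (0.10 to 0.74; adjusted p = 0.327). Plod1 had the same layout, with 6.45, 6.50 and 6.45 in D10, 6.06, 6.16 and 6.14 in D5, and 6.50, 6.31 and 6.07 in ESC. The ESC arrays of Plod1 overlapped with both lines. Its log2 changes were 0.18 for D10 against ESC (-0.11 to 0.47; limma, adjusted p = 0.495), -0.18 for D5 against ESC (-0.43 to 0.08; adjusted p = 0.506) and 0.36 for D10 against D5 (0.07 to 0.64; adjusted p = 0.360). The upper interval bounds for D10 against ESC correspond to folds of 1.48 for Plod2 and 1.38 for Plod1, below the lower bounds of 2.00 to 2.14 for Lox, Loxl1, Loxl2 and Loxl3. The lower bounds for Loxl4 (1.25), Plod3 (1.17) and Pcolce (1.23) lay under these upper bounds.

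Pcolce binds the C-propeptide of procollagen and speeds its removal by Bmp1. It had 7.82, 7.63 and 7.90 in D10, 7.42, 7.50 and 7.47 in D5, and 7.28, 7.20 and 7.19 in ESC. The groups were ordered without overlap, with small steps. Pcolce was 1.43-fold higher in D10 than in ESC (7.74 ± 0.16 against 7.22 ± 0.05; limma, adjusted p = 0.0134), and among 17 alternatives the call was lost only when the fit left out the D5 arrays (adjusted p = 0.0502). The log2 changes of 0.24 in D5 against ESC (95% interval 0.04 to 0.44; limma, adjusted p = 0.200) and 0.28 in D10 against D5 (0.05 to 0.50; adjusted p = 0.361) did not pass.

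The protease that Pcolce helps, Bmp1, and its relative Tll1 rose in D10, as Pcolce did, and also in D5, where Pcolce did not pass. In the list of 7 procollagen-cleaving genes, Tll1 was 2.71-fold and Bmp1 2.33-fold higher in D10 than in ESC and 2.00-fold and 1.71-fold higher in D5 (limma, adjusted p from 9.94e-05 to 0.00236), while the other 5 genes, among them the related enhancer Pcolce2 (log2 change -0.17 in D10), did not pass. Of 12 further genes of prolyl and lysyl modification, 2 rose in D10: the prolyl 4-hydroxylase subunit P4ha3 (log2 change 0.96) and P3h4, a partner of lysyl hydroxylase Plod1 (0.61). P4ha3 alone rose in D5 (0.48), and the list's median was 0.34 in D10 and 0.13 in D5. Of 13 folding and export genes 7 rose in D10, led by the collagen prolyl isomerase Fkbp10 (0.998), the collagen-binding protein Sparc (0.94) and the collagen chaperone Serpinh1 (0.87), and Fkbp10 (0.71) and Sparc (0.61) rose in D5.

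Over these 32 other collagen-processing genes, 11 rose in D10 against ESC with a median of 0.36, and 5 rose in D5 against ESC with a median of 0.17. The shares of all probe sets called higher were 5.32% and 2.36%. In limma 0 fell in either comparison, with 0 falls in D10 and 1 in D5 at an unadjusted p under 0.05. The count in D10 was 7 when the fit left out the D5 arrays, and that in D5 was 3 without ESC replicate 1 or 3 and 8 when the dimmest 30% of probe sets were left out. Between D10 and D5 the count was 0 of 32 in limma, with 12 at an unadjusted p under 0.05, all higher in D10, where 5.58% of all probe sets were higher at that p.

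Most matrix genes listed as cross-linked substrates moved in the direction of the oxidases. Of these 15 genes, 11 were higher in D10 than in ESC and 11 in D5 (5.32% and 2.36% of all probe sets). Their median log2 changes were 1.02 and 0.64. Collagen VI chains and fibronectin are on this list, and cross-linking was not measured. Col6a3 is also counted among the fibroblast markers below. The largest changes in D10 were those of the collagen chains Col6a3 (1.69), Col3a1 (1.66) and Col1a2 (1.66), and in D5 those of Col3a1 (1.10), Col6a3 (1.07) and Col1a1 (0.94). Col1a2 was the member that passed between D10 and D5 (0.77; limma, adjusted p = 0.0457). Elastin (Eln), a main substrate of Lox and Loxl1, had log2 changes of -0.12 in D10 and 0.04 in D5 and did not pass (limma, adjusted p = 0.698 and 0.923); it was named after its values were seen.

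In the list of 6 genes for copper supply and scaffolding of the oxidases, the 3 that rose in D10 were scaffold proteins and not copper carriers: periostin (Postn, log2 change 1.75), Fbln5 (1.47) and Fbln4 (0.93), which hold oxidases to collagen or elastic fibres. Postn (0.86) and Fbln4 (0.57) rose in D5 too. The copper transporters Atp7a and Slc31a1 and the copper chaperone Atox1, named after their values were seen, had log2 changes between -0.05 and 0.04 in both lines. TGF-beta, a known inducer of oxidases, was represented by 12 genes of signalling and targets, of which 9 rose in D10 (median 0.93) and 7 in D5 (median 0.59). Among them were the TGF-beta activator Thbs1 (log2 change 1.92) and the matrix protein Tgfbi (1.59) in D10, and Tgfbi (1.14) and the ligand Tgfb3 (0.98) in D5. Thbs1 also passed between D10 and D5 (1.03; limma, adjusted p = 0.0463). Of this list 3 genes did not pass in D10 and 5 in D5. Among these were Ccn2 (log2 change 0.01 in D10 and 0.14 in D5) and Smad7 (-0.07 and -0.24), named after their values were seen. Over all probe sets 5.32% were called higher in D10 and 2.36% in D5. A part of TGF-beta in the change of the oxidases was not tested.

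Hypoxia induces Plod2, Plod1, Loxl2 and Lox in many cell types, and the hypoxia genes were set beside them. Of 14, 7 fell and 1 rose in D10 (median -0.37), and 6 fell and 1 rose in D5 (median -0.43). Over all probe sets 3.33% were called lower and 5.32% higher in D10, and 1.5% lower and 2.36% higher in D5. The mitophagy receptor Bnip3 fell by 1.04 in D10 and 1.07 in D5, the prolyl hydroxylase Egln3 fell by 0.89 in D10 and 0.93 in D5, the glucose transporter Slc2a1 fell by 0.78 in D5, and Vegfa, an angiogenic growth factor, rose by 0.97 in D10 and 0.49 in D5, all on the log2 scale.

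**Figure D3:**
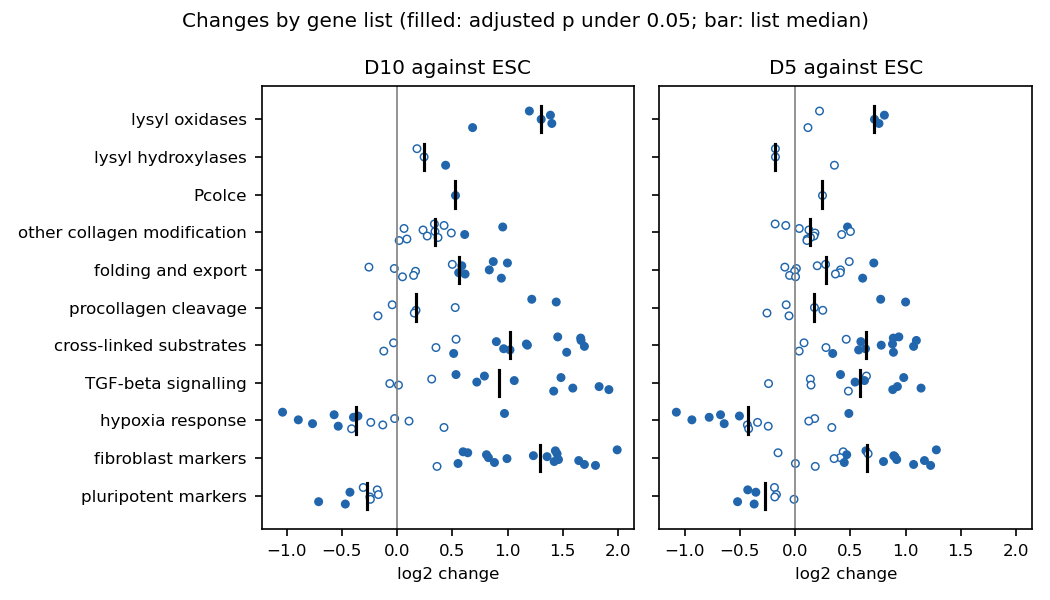
Log2 changes (horizontal axis) in D10 against ESC and D5 against ESC for the members by role and for the other lists; each point is a gene, filled where the adjusted p is under 0.05, and the black bar is the list's median. The oxidase medians of 1.30 and 0.72 lie close to those of the fibroblast markers (1.30 and 0.65), and the hypoxia and pluripotent lists lie mostly below 0.

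Fibroblast markers were higher in D10 and D5, in the direction of the oxidases and their listed substrates and opposite to most called hypoxia genes. The cells were grown on feeder cells, whose type is not given in the labels. Of 18 fibroblast markers 17 were higher in D10 than in ESC and 11 in D5 (5.32% and 2.36% of all probe sets), with median log2 changes of 1.30 and 0.65. Their summed linear level ranged from 4317 to 4619 in D10, 3087 to 3358 in D5 and 1686 to 1936 in ESC, and that of the 5 lysyl oxidases from 488 to 499 in D10, 285 to 323 in D5 and 196 to 218 in ESC. Among the defining markers, Thy1 was 3.98-fold and Pdgfra 2.70-fold higher in D10, and 2.43-fold and 1.56-fold higher in D5. Both, like Lox, passed between D10 and D5 (limma, adjusted p = 0.0457 for Thy1 and 0.0358 for Pdgfra). They were the only 2 of the 18 markers to pass there, where 0.194% of all probe sets were higher, and the other 16 did not. At an unadjusted p under 0.05 in limma, 15 of the 18 were higher in D10 than in D5, as were 5.58% of all probe sets. Fap alone of the 18 had a mean under the background level, and the ESC arrays also carried these markers, with 16 of 18 group means above it. The part of fibroblasts in the change of the enzymes was not tested. The summed level of 8 pluripotent markers was 7618 to 7820 in D10, 7904 to 8443 in D5 and 10323 to 10803 in ESC. Of the 8, 3 were lower in D10 and 4 in D5 (3.33% and 1.5% of all probe sets).

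**Figure D4:**
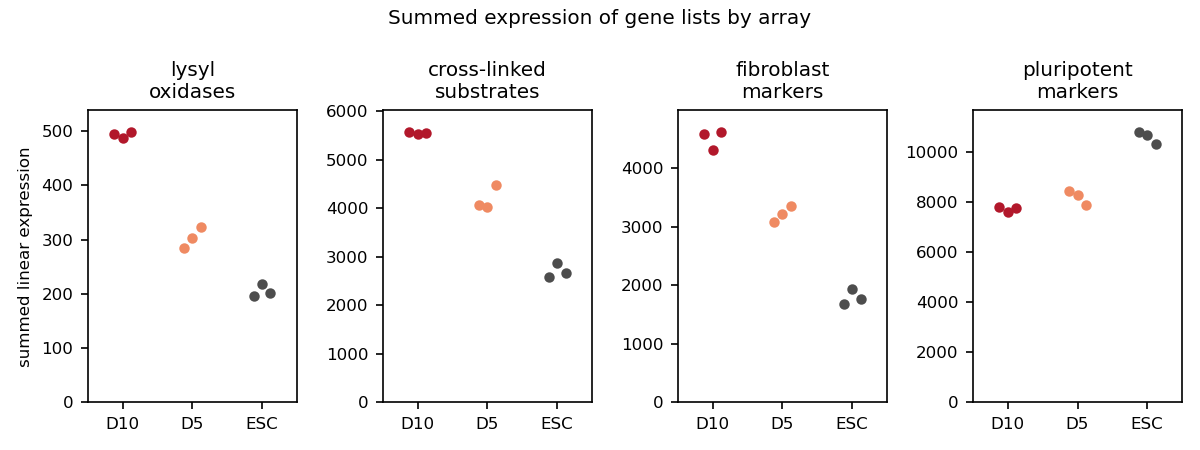
Summed linear expression (vertical axis, 2 to the power of the log2 values, starting at 0) of the 5 lysyl oxidases, 15 genes listed as cross-linked substrates, 18 fibroblast markers and 8 pluripotent markers on each array of D10, D5 and ESC. In the first 3 panels the arrays run from D10 at the top over D5 to ESC without overlap (oxidases 488 to 499, 285 to 323 and 196 to 218), and in the last panel ESC is highest.

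The marker lists of other cell types were shorter, and their counts stand beside the shares of all probe sets called. In D10 against ESC these shares were 5.32% higher and 3.33% lower, and in D5 against ESC 2.36% higher and 1.5% lower. Of 7 osteoblast and marrow stroma markers 3 were higher in D10 and 0 in D5 (limma; 2 in D5 at an unadjusted p under 0.05), with medians of 0.33 and 0.11. Of 8 primitive and parietal endoderm markers, whose cells make much basement membrane collagen, 2 were higher and 1 was lower in D10 (median -0.10), and 1 was lower in D5 (median 0.17). Of 6 endothelial markers 2 were higher and 1 was lower in D10, and 1 was lower in D5. Of 10 blood cell markers, Cd34 alone, which stromal cells also express, was called, with log2 changes of 1.10 in D10 and 0.69 in D5, and it was named after its values were seen.

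Loxl3 had the widest range of group means, 1.40 on the log2 scale, and was compared over the 9 arrays with 15157 other named genes above the background level. The most similar were Mbnl2 (r = 0.994), a regulator of RNA splicing, Colec12 (r = 0.992), a scavenger receptor, Abhd5 (r = 0.992), a co-activator of triglyceride breakdown, Inf2 (r = 0.992), a formin acting on actin, and Il18rap (r = 0.991), a subunit of the interleukin-18 receptor. Mbnl2, for example, averaged 8.45 in D10, 8.06 in D5 and 7.51 in ESC. Among the members, Loxl1 (r = 0.979) and Loxl2 (r = 0.963) followed Loxl3 most closely, ahead of Plod3 (0.909), Pcolce (0.907), Lox (0.893) and Loxl4 (0.845), whereas Plod1 and Plod2 had 0.384 and 0.371. These correlations describe arrays that fall into 3 groups and share that structure with many genes: 55 of the other genes had a higher r than Loxl1, and 866 a higher one than Lox.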

How the data were processed

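Per the labels' protocols, total RNA was biotinylated in a whole-transcript assay, and 9 Affymetrix arrays were run. Groups and replicate numbers came from the sample titles. The deposited values are log2 expression values; per the submitters' processing notes the authors used MAS5, and how arrays were scaled to each other is not stated there. The log base was found by raising 2 to these values, which returned the linear intensity columns of the authors' list of 461 probe sets (largest relative difference 1.35e-05). The authors' tables of log2 values are identical in the 2 files that hold them. The array medians lay between 4.45 and 4.53. Arrays have no read depth, and their number limits the precision.

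Probe sets were named through RefSeq accessions, symbols and older symbols of the GRCm38.p6 gene table; 3730 stayed unnamed. All 28853 probe sets were fitted without a filter in limma 3.58.1 under R 4.3.3 (lmFit, eBayes). The model had 1 mean for each group, 8 samples, 5 residual degrees of freedom and 3.56 prior ones. The p-values are two-sided and adjusted over all probe sets by Benjamini-Hochberg, at a threshold of 0.05. The background level is the value that 95% of 1419 probe sets for olfactory or vomeronasal receptors stay under. The fit was tested on simulated data. The members, the lists and the averaging of D10 replicates 1 and 3 were chosen with earlier results of these data known. Always named were the 9 genes, Pou5f1, Nanog, Sox2, Thy1, Pdgfra and Col1a1. By rule, up to 3 members with the largest change past the threshold were named from the collagen-processing, substrate, copper and scaffold, TGF-beta and hypoxia lists. The rule was not applied to the lists of cell type markers, which are given mainly by counts. Genes most similar to Loxl3 were named by their correlation. Eln, Atp7a, Slc31a1, Atox1, Pcolce2, Ccn2, Smad7, Cd34 and Fap were named after their values were seen. A gene of the TGF-beta list that the rule would name is not reported here. Alternatives were median centring, quantile normalization, leaving out the dimmest 30% of probe sets, a robust fit with an intensity trend, fits without the third group, array weights, 9 arrays counted separately, the replicate block, each array left out, and the other probe set of Loxl4.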

Additional observations from a re-analysis of the deposited data

Results flagged for a closer look

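Lox differed between the re-derived lines in its change against ESC: the change in D10 exceeded that in D5 by 0.97 on the log2 scale (limma on D10 against D5, adjusted p = 0.0110; adjusted p from 0.000781 to 0.135 over the alternatives, the highest without D10 replicate 2, where D10 has n = 1), and all 3 D10 arrays stood above all 3 D5 arrays. None of the other 8 genes passed this test in limma, while 7 of them were higher in D10 at an unadjusted p under 0.05, as were 5.58% of all probe sets.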

How the results depend on the processing

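Of 462 values of the 9 genes under alternatives, 434 kept their direction and side of the threshold, 17 lost a call, 10 gained one and 1 changed sign: Loxl4 in D5 against ESC, whose log2 change ran from -0.012 to 0.22 when 1 array was left out (-0.012 without ESC replicate 3) and had no call. The calls of Lox, Loxl1, Loxl2 and Loxl3 in D10 against ESC and of Loxl1 in D5 against ESC held in all 17 alternatives. The genes called in D10 against ESC were 7, and 4 in a fit without the third group; leaving out 1 array gave 5 to 7, and in D5 against ESC 1 to 3. In D10 against D5 the count of 1 became 2 with an intensity trend and robust estimation, 0 without the third group, 4 with 9 arrays counted separately, and 0 to 1 with 1 array left out. Other collagen-processing genes called were 11 in D10 against ESC (7 without the third group), 5 in D5 against ESC (8 without the dimmest 30% of probe sets, 3 to 6 with 1 array left out) and 0 in D10 against D5 in limma (3 with 9 arrays counted separately; 12 at an unadjusted p under 0.05, where 5.58% of all probe sets were higher and 4.17% lower).

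Over all probe sets, 2496 were called in D10 against ESC (1582 without the third group, 3977 with 9 arrays, 1188 to 2507 with 1 array left out, the lowest without D10 replicate 2, where D10 has n = 1), 1116 in D5 against ESC (1695 with the trend, 457 to 1091 with 1 array left out), and 62 in D10 against D5 (154 without the dimmest 30%, 268 with the trend, 2 without the third group, 29 with array weights, 517 with 9 arrays, 4 to 56 with 1 array left out). The causes were not tested. Deviations from the group means correlated at -0.38 to 0.30 over 9 same-numbered pairs. Pairs with different numbers were not computed, so these values cannot decide whether the replicate numbers pair the samples. With 9 arrays and the replicate block, D10 against D5 had 2 of the 9 genes and 193 probe sets called. Loxl4 lies near the background level, which limits what its values can show.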
